A study of Mus musculus with 8 samples.

Results

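The insulin receptor signaling genes described here are Insr, Igf1r, Irs1, Irs2, Irs3, Pik3r1, Pik3ca, Akt1, Akt2 and Foxo1, which carry the signal from the cell surface to the nucleus. Members were taken as every non-control probe whose RefSeq transcript belongs to 1 of these genes. This gave 16 probes for 10 genes, out of 55681 probes and 19752 named genes on the array. Insr and Akt2 had 3 probes each, Irs1 and Foxo1 had 2, and the other genes had 1. All 16 probes were well above background on all 8 arrays.

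The arrays measured total RNA of gonadal white fat in 4 Rap1-/- samples and 4 WT samples. The mice were on the C57BL6/129SV (90%:10%) background, all 10 weeks old and, per the study's methods, female. RAP1, encoded by Terf2ip, is a protein of shelterin, the complex that coats telomeres. The knockout is constitutive and present in the whole body. A floxed allele was recombined by a cre transgene driven by the EIIa promoter, and that transgene was then bred out of the colony, so changes that arise in fat and changes that arise elsewhere cannot be told apart. The study picked this age to look at transcription ahead of the obesity of the knockout. Whether the mice were fed or fasted when the fat was taken is not given in the sources used here. Nothing in the labels says beyond the replicate number that each sample came from a separate animal, so the p-values measure the spread between these samples.

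Insulin binds a receptor tyrosine kinase encoded by Insr, and the closely related receptor encoded by Igf1r binds IGF1. The active receptor phosphorylates insulin receptor substrate (IRS) proteins, which recruit phosphoinositide 3-kinase (PI3K), a regulatory subunit (Pik3r1) joined to a catalytic subunit (Pik3ca). Its lipid product brings the AKT kinases to the membrane, and AKT keeps the transcription factor FOXO1 out of the nucleus. In adipocytes the pathway drives glucose uptake through the transporter GLUT4, favors lipid storage and restrains lipolysis, with AKT2 as the isoform best known for insulin-stimulated glucose transport. Much of this signaling runs through protein phosphorylation, which an array of transcript levels does not read.

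The 75th percentile of the processed signal lay between 302 and 497 intensity units, the share of spots called well above background lay between 59.7% and 65.2%, and saturation was seen at 0 spots. The arrays came from 2 slides with 2 arrays of each genotype per slide, and WT sat at positions 1 and 2 and Rap1-/- at positions 3 and 4 of both, so that slide position and genotype cannot be told apart. The labels held for the deleted gene. Terf2ip probe A_52_P381806 gave 0.06, 0.26, 0.49 and 0.23 in WT (log2 relative to the 75th percentile of the array) and was not well above background in any Rap1-/- sample, which makes it at least 50.5-fold lower there, while probe A_55_P2094079 of the same gene was higher in the knockout by 2.38.

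The start sites of the member genes were searched for TTAGGG, the repeat of the telomeres that shelterin coats. No binding of RAP1 was measured in these samples. The RefSeq windows of GRCm38.p6, each from 250 bases before to 50 bases after a start, gave 14 windows for 9 of the members. A tandem of 2 units of the repeat TTAGGG was found on either strand in 0 of the 14, against 0.0122% of the 32851 windows of all genes. The single unit TTAGGG was found in 2 of the 14, against 10.6% of all windows. One stands in a window of Pik3r1 (chr13:101692756-101692815, minus strand) and the other, read on the opposite strand as CCCTAA, in a window of Akt2 (chr7:27596655-27596714, plus strand). They are shown as the only matches to the repeat among the 14 windows, with the matched letters in capitals.

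Pik3r1: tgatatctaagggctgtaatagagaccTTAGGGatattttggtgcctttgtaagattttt
Akt2: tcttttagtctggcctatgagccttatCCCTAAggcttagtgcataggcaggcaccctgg

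Irs1 and Irs2 encode the docking proteins for PI3K, and transcription of Irs2 is known to be repressed when insulin shuts FOXO1 out of the nucleus. Their windows are printed whole, since both hold the core of an insulin response element, TGTTTTG, close to an E-box, CACGTG. Irs1 has TGTTTTG at positions 140 and 219 and CACGTG at 136, counted from 1 at the start of the window, and the first TGTTTTG shares its opening letters with the E-box. Irs2 has CACGTG at 207 and TGTTTTG at 214. Capitals mark these letters in Irs1 (chr1:82291390-82291689, minus strand) and in Irs2 (chr8:11008880-11009179, minus strand).

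Irs1: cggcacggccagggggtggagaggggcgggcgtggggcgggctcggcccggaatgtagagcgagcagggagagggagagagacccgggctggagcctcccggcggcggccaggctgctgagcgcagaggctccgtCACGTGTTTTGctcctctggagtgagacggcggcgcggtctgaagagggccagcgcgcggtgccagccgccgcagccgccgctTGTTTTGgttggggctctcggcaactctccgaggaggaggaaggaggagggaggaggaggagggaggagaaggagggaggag
Irs2: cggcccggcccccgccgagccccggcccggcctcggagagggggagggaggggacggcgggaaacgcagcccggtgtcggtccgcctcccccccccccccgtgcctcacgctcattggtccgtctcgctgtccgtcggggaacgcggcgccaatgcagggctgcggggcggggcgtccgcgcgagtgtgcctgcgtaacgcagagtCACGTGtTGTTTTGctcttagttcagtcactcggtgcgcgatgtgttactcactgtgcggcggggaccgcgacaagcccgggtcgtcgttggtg

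Searched on both strands, TGTTTTG was in 6.28% and CACGTG in 7.15% of all windows, and each was in 2 of the 14 member windows, those of Irs1 and Irs2. The FOXO core GTAAACA was in 3.65% of all windows and in 1 member window, of Akt1. These matches describe letters in the windows and say nothing of binding.

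None of the 10 genes differed between Rap1-/- and WT fat in a way that passed the test. With limma on all 33983 probes well above background on at least 4 arrays and Benjamini-Hochberg adjustment over all of them, 0 of the 16 member probes passed at 0.05, where 0.00589% of all probes did (2 probes, both of Terf2ip). At an unadjusted p under 0.05, 0 of the 16 passed, against 4.83% of all probes. The genotypes overlapped on each of the 16 probes, whereas 3.16% of all probes separated them. By the brightest probe of each gene, 8 of the 10 differences were below 0 and the median difference was -0.05, beside 54.2% below 0 and a median of -0.01 over all 14925 named genes. Under scaling to the E1A spike-in controls, which moves the median of all named genes to 0.22, 9 of the 10 were above 0 with a median of 0.18, that is -0.03 relative to all genes. The controls lay 2.89 to 3.07 log2 units above the 75th percentile in Rap1-/-. In WT they lay 3.15, 2.96, 3.57 and 3.11 above it, with replicate 3 the highest of the 8 arrays. The number below 0 was 7 with quantile normalization, 6 with normexp, 5 in the deposited table and 4 with median scaling. The 95% intervals say what sizes remain possible. Over the 16 probes they reached at most to a 1.57-fold lower signal (Irs3) and to a 1.46-fold higher one (Foxo1, probe A_52_P453884).

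**Figure D1:**
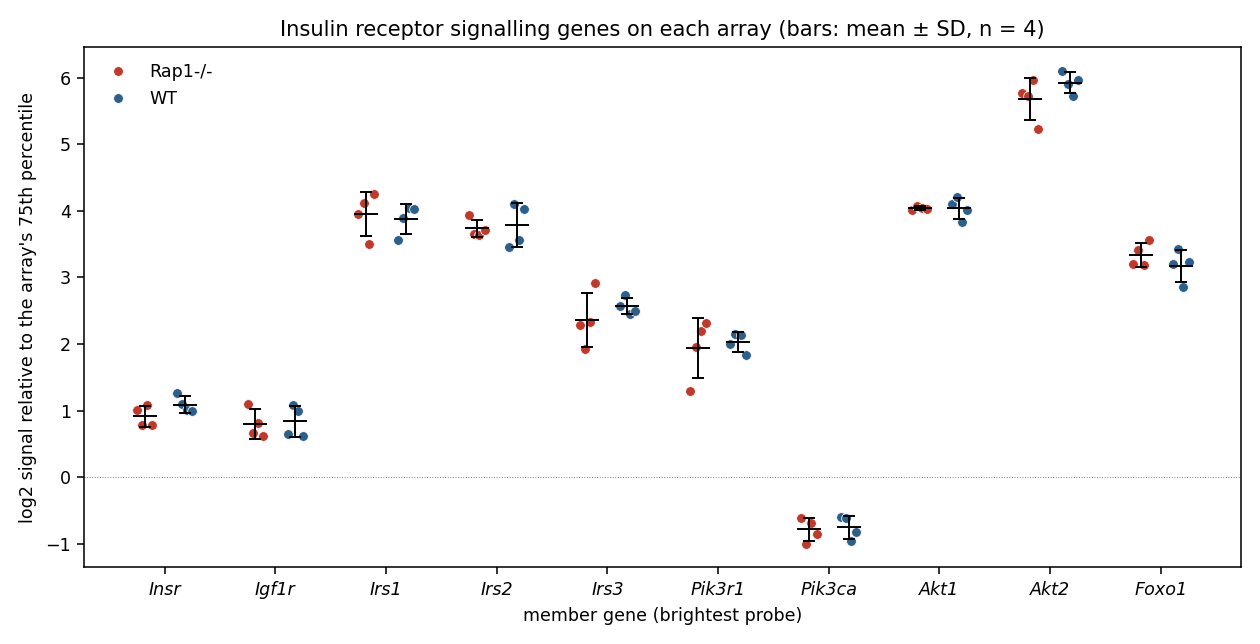
Log2 signal relative to the array's 75th percentile (vertical axis) of the brightest probe of each member gene (horizontal axis) on the 4 Rap1-/- and 4 WT arrays, 1 point per array in the order of the replicate number, with the mean and SD in black. The genotypes overlap for all 10 genes, and heights of different genes are not comparable because each comes from its own probe.

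Insr, the insulin receptor itself, had the smallest p among the members. Its brightest probe (A_52_P494514) gave 1.01, 0.78, 1.08 and 0.78 in the 4 Rap1-/- samples and 1.27, 1.09, 1.00 and 1.00 in the 4 WT samples on the log2 scale relative to the 75th percentile. All 4 Rap1-/- values were under the WT mean, and Rap1-/- replicates 1 and 3 lay within the WT range. The difference of -0.18 ± 0.11 (SE, 95% interval -0.43 to 0.07) did not pass (limma adjusted p = 0.897, two-sided exact permutation p = 0.171, where 0.0286 is the smallest that 4 against 4 samples can give). Within the slides it was -0.28 and -0.07. The second probe, A_55_P2173927, followed the first over the arrays (Pearson r = 0.93, n = 8) and differed by -0.14 ± 0.10. The third, A_55_P2172566, followed it less closely (r = 0.44) and differed by -0.02 ± 0.12. The probes of the receptor gene thus gave differences of unequal size in 1 direction, and -0.09 to 0.06 on the third probe as single arrays were left out.

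Igf1r, the receptor for IGF1, was spread more widely within each genotype than between their means. Its probe ranged from 0.62 to 1.10 in Rap1-/- and from 0.63 to 1.09 in WT, with means of 0.80 ± 0.22 and 0.84 ± 0.24 (SD, n = 4). The 2 ranges were almost the same. The difference was -0.04 ± 0.15 (SE, limma adjusted p = 0.983).

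The 3 substrate genes showed no shared direction. Irs1, which encodes the substrate tied most closely to insulin-stimulated glucose uptake in fat, gave 3.96, 4.12, 3.50 and 4.26 in the 4 Rap1-/- samples and 3.56, 3.89, 4.04 and 4.02 in the 4 WT samples on probe A_52_P175242. Rap1-/- replicate 3 and WT replicate 1 were the low samples, 1 in each genotype. The difference was 0.08 ± 0.18 (SE, limma adjusted p = 0.964), made of 0.31 within slide 1 and -0.15 within slide 2. The dimmer probe A_52_P171212 differed by -0.05 ± 0.20 and followed the first with r = 0.69. Irs2, the substrate gene that FOXO1 activates in the fasted liver, gave 3.93, 3.65, 3.64 and 3.72 in the 4 Rap1-/- samples and 3.46, 4.11, 3.56 and 4.03 in the 4 WT samples. All 4 Rap1-/- values lay inside the WT range, and the difference was -0.06 ± 0.17 (SE, limma adjusted p = 0.976).

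Irs3, a short substrate that rodent adipocytes express and humans lack, was spread more widely in Rap1-/- than in WT. It gave 2.29, 1.92, 2.34 and 2.91 in the 4 Rap1-/- samples and 2.58, 2.73, 2.46 and 2.50 in the 4 WT samples. In Rap1-/-, 3 samples lay under every WT sample and replicate 4 lay above every one. The means were 2.36 ± 0.41 and 2.57 ± 0.12 (SD, n = 4) and the difference -0.20 ± 0.19 (SE, limma adjusted p = 0.913, two-sided exact permutation p = 0.400). The slides disagreed in sign, at -0.55 on slide 1 and 0.14 on slide 2. Without Rap1-/- replicate 4, the knockout sample above every WT sample, the difference was -0.39 (limma adjusted p = 0.848). Without Rap1-/- replicate 2 it was -0.055. Rap1-/- replicate 4 was also the array with the lowest mean of the skeletal muscle markers and of the adipocyte markers, and the part of this in Irs3 was not tested.

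The PI3K genes gave small differences that changed sign between the slides. Pik3r1, the p85 regulatory subunit, gave 1.30, 1.95, 2.20 and 2.31 in the 4 Rap1-/- samples and 2.00, 2.15, 2.14 and 1.84 in the 4 WT samples. Rap1-/- replicate 1 was the lowest of the 8 samples, and the other 3 Rap1-/- samples spanned most of the WT range and passed above it. The difference was -0.09 ± 0.21 (SE, limma adjusted p = 0.966), from -0.45 on slide 1 and 0.27 on slide 2, and it was 0.12 without Rap1-/- replicate 1. Pik3ca, the p110α catalytic subunit, averaged -0.79 in the knockout and -0.75 in WT with an SD of 0.17 in each, and differed by -0.03 ± 0.12 (SE, limma adjusted p = 0.983).

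Of the AKT kinases, Akt1 had equal means and Akt2 did not pass either. Akt1, the widely expressed isoform, averaged 4.04 in both genotypes, with an SD of 0.03 in Rap1-/- and 0.16 in WT (n = 4), and the 95% interval of its difference ran from -0.22 to 0.22. Akt2 gave the largest difference of any member. Its brightest probe (A_55_P2066518) gave 5.78, 5.72, 5.97 and 5.23 in the 4 Rap1-/- samples and 6.10, 5.91, 5.73 and 5.97 in the 4 WT samples. Rap1-/- replicate 4 was the lowest of the 8 samples, and Rap1-/- replicate 3 was as high as WT replicate 4. The difference was -0.25 ± 0.16 (SE, 95% interval -0.63 to 0.13, a 1.19-fold lower signal) and did not pass (limma adjusted p = 0.897, two-sided exact permutation p = 0.229). It was of the same size on both slides, at -0.26 and -0.25, and it was -0.10 without Rap1-/- replicate 4. Probe A_55_P2025228 followed the first almost exactly (r = 0.99, n = 8) and differed by -0.23 ± 0.16, while A_55_P2066523 followed it with r = 0.73 and differed by -0.08 ± 0.15, from -0.22 on slide 1 and 0.055 on slide 2.

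Foxo1, the transcription factor at the end of the route, was the 1 gene with both probes higher in the knockout. Probe A_51_P138044 gave 3.20, 3.41, 3.18 and 3.56 in the 4 Rap1-/- samples and 3.20, 3.42, 2.85 and 3.23 in the 4 WT samples. All 4 Rap1-/- values were above the WT mean of 3.18, and WT replicate 3 was the lowest sample. The difference was 0.16 ± 0.14 (SE, limma adjusted p = 0.908), it lay on slide 2 (0.33 against -0.0023 on slide 1), and it was 0.06 without WT replicate 3. The second probe, A_52_P453884, followed the first with r = 1.00 (n = 8) and differed by 0.19 ± 0.16. WT replicate 3 was also the array with the lowest mean of the mesothelium markers, and with the mean of those markers as a covariate the 2 probes differed by -0.072 and -0.074. The part of mesothelium in the Foxo1 difference was not tested.

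**Figure D2:**
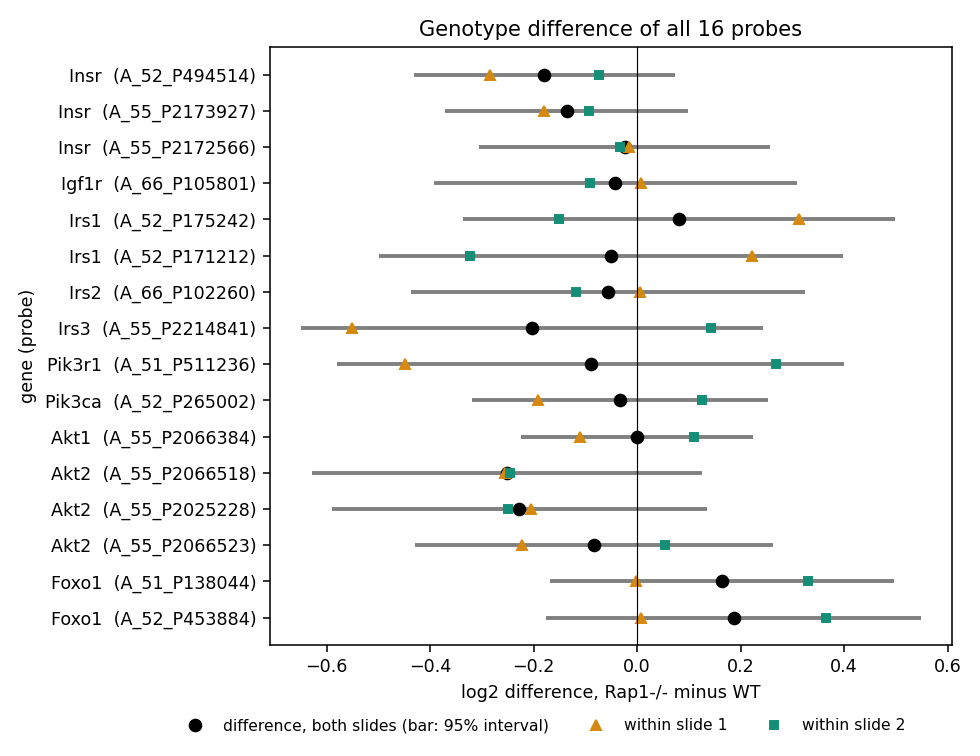
Log2 difference, Rap1-/- minus WT (horizontal axis), of each of the 16 member probes (vertical axis), with the limma 95% interval in gray over both slides and the difference within slide 1 (triangles) and slide 2 (squares). All 16 intervals include 0, and the slides lie on opposite sides of 0 for both Irs1 probes, Irs3, Pik3r1, Pik3ca, Akt1 and Akt2 probe A_55_P2066523, among others, while the brightest Akt2 probe reads -0.26 and -0.25.

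The rest of the pathway was described by 6 lists of genes grouped by role. Of their 82 genes 80 were tested (Igfbp1 and Enpp1 were not), and 0 passed the adjusted threshold in either direction, with 40 above and 40 below 0. At an unadjusted p under 0.05 there were 4, or Igfbp2, Igfbp6, Insrr and Pdk4, where 4.46% of named genes reached that level. The ligands and binding proteins had 9 of 12 genes above 0 and a median difference of 0.10, which was 0.05 (7 of 12 above 0) with the mesothelium markers as a covariate. Igfbp2, which binds IGFs outside the cell, averaged -1.62 in Rap1-/- and -2.45 in WT, a difference of 0.83 ± 0.25 (SE, limma adjusted p = 0.897), with 1.04 and 0.61 on the slides. Igfbp6, which prefers IGF2, differed by 0.46 ± 0.18, and by 0.10 with the mesothelium markers as a covariate. With that covariate Igfbp2 differed by 1.16, so the covariate moved differences both ways. The mesothelium mean itself ran from 1.73 to 2.01 in Rap1-/- and from 0.62 to 1.86 in WT. The part of mesothelium in these differences was not tested. Igfbp7, a related secreted protein, differed by 0.45 ± 0.21 at a dim level (mean -2.76 in Rap1-/- and -3.21 in WT). It differed by 0.13 with normexp, 0.24 in the deposited table and 0.23 with the mesothelium markers as a covariate.

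Among the other adaptors and receptor paralogs, 8 of 14 were below 0 with a median of -0.01. Insrr, which encodes a receptor related to the insulin receptor, differed by -0.58 ± 0.25 at a dim level (mean -3.07 in Rap1-/- and -2.49 in WT). Irs4, another substrate gene, differed by -0.30 ± 0.17, also at a dim level (mean -2.53 in Rap1-/- and -2.23 in WT). In the deposited table Insrr differed by -0.23 and Irs4 by -0.11. In the PI3K and PDK1 arm, 6 of 11 were below 0 with a median of -0.01 and no difference beyond -0.14, that of the regulatory subunit gene Pik3r3. Pik3c2a, a class II PI3K, differed by -0.11 ± 0.10 and Pdpk1, the kinase PDK1 that activates AKT, by -0.09 ± 0.10. The brakes on the pathway were split as well, 8 of 15 below 0 with a median of -0.0018. The 3 genes with the smallest p, none of which passed, were Socs3 (0.30 ± 0.17), a cytokine-induced inhibitor of the receptor, Ptprf (0.29 ± 0.17), a receptor phosphatase, and Grb14 (0.46 ± 0.30), which blocks the receptor kinase. Socs3 differed by 0.58 on slide 1 and 0.015 on slide 2, and Grb14 by 0.83 and 0.09. Ptprf was at 0.14 without WT replicate 3. With the mesothelium markers as a covariate Ptprf was at -0.053, Grb14 at 0.27 and Socs3 at 0.45.

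Below AKT, the count of the AKT outputs on either side of 0 moved with the processing, and that of the FOXO targets mainly with single arrays. Of the AKT substrates and outputs 13 of 16 were below 0, with a median of -0.10. The count was 14 of 16 with normexp (median -0.070) and 3 of 16 under the E1A scaling (0.13). It was 10 of 16 with quantile normalization (median -0.062), in the deposited table (-0.048) and with median scaling (-0.040). Median and E1A scaling shift every gene alike, so they cannot change values relative to the median of all named genes. Against that median 13 of 16 were below, with the list median at -0.085. The count below it was 13 of 16 with normexp (-0.046). It was 10 of 16 with quantile normalization (-0.080) and in the deposited table (-0.063). Pde3b, the phosphodiesterase through which insulin restrains lipolysis, averaged 4.89 ± 0.15 in the knockout and 5.13 ± 0.12 in WT (SD, n = 4), a difference of -0.24 ± 0.11 (SE, limma adjusted p = 0.897). Gsk3a, a kinase that AKT inhibits, differed by -0.15 ± 0.08 and Slc2a4, which encodes GLUT4, by -0.28 ± 0.17. Rps6kb1, the S6 kinase, was the only gene of the 6 lists whose genotypes did not overlap (4.57 to 4.62 against 4.63 to 4.79), 1 of 80 where 3.12% of all named genes did so, and it was picked out after its values were seen. Of the FOXO target genes 10 of 12 were above 0, with a median of 0.10. The count stayed at 10 of 12 with normexp, quantile normalization, median scaling and in the deposited table, and was 11 of 12 under the E1A scaling. Among fits that left out 1 array, it was 8 of 12 (0.030) without Rap1-/- replicate 1 and 7 of 12 (0.059) without Rap1-/- replicate 3. It was 10 of 12 (0.16) without Rap1-/- replicate 4 and 9 of 12 (0.059) without WT replicate 4. Pdk4, the kinase that shuts off pyruvate dehydrogenase in fasting, averaged 2.58 ± 0.47 in the knockout and 1.95 ± 0.38 in WT (SD, n = 4), a difference of 0.63 ± 0.27 (SE, limma adjusted p = 0.897). It was 0.40 without Rap1-/- replicate 4 and 0.41 with the mesothelium markers as a covariate. With that covariate Pde3b differed by -0.31, Slc2a4 by -0.31, Gsk3a by -0.11, Sesn3 by 0.20 and Pnpla2 by -0.28. In the deposited table Pde3b differed by -0.16, Slc2a4 by -0.18 and Gsk3a by -0.10. Under the E1A scaling Pde3b was at -0.0078, Slc2a4 at -0.051 and Gsk3a at 0.079. Pde3b was at -0.12 within slide 2, and Slc2a4 at -0.14 without WT replicate 1. Sesn3 differed by 0.24 ± 0.13, from 0.41 on slide 1 and 0.06 on slide 2, and by 0.13 without Rap1-/- replicate 1. Pnpla2, the triglyceride lipase gene that is also among the adipocyte markers, differed by -0.16 ± 0.11, but by -0.026 with quantile normalization, -0.030 in the deposited table, 0.07 under the E1A scaling and 0.032 within slide 2. Under the E1A scaling the medians of the adaptors, the PI3K arm and the brakes were 0.22, 0.22 and 0.23. Relative to all named genes they were 0.0021, 0.0063 and 0.013, values that this scaling cannot change.

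**Figure D3:**
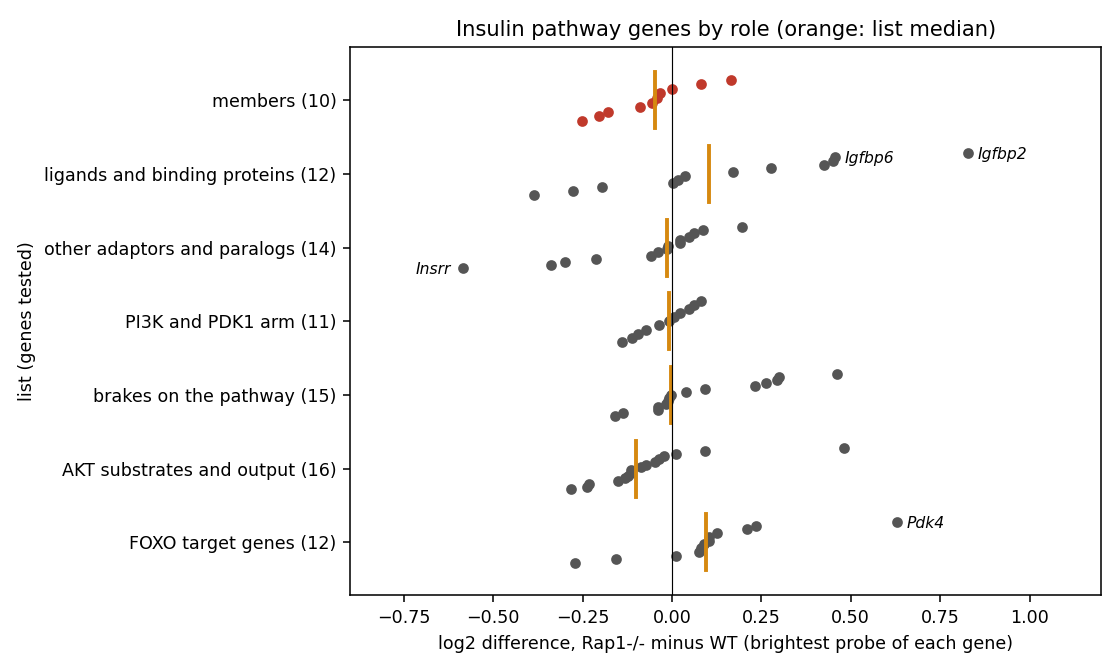
Log2 difference, Rap1-/- minus WT (horizontal axis), of the brightest probe of each tested gene in the member set (red) and the 6 other lists of the pathway (gray), with the list median as an orange bar and the 4 genes with an unadjusted limma p under 0.05 named. The list medians lie between -0.10 and 0.10, and 0 of the genes shown passed the adjusted threshold.

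The tissue label held for the marker genes of fat, and the marker lists of cell types moved among the arrays. All 11 adipocyte markers were tested on signals well above background on all 8 arrays. Of these, 10 were below 0 and 1 was above it, at 0.63, with a median difference of -0.21. At an unadjusted limma p under 0.05 there were 5 of 11, where 4.46% of named genes reached that level. The genotypes did not overlap on 2 of 11, against 3.12% of named genes. The median was -0.17 with normexp, -0.15 with median scaling, and -0.03 in the deposited table and with quantile normalization. Under the E1A scaling it was 0.02, which is -0.20 relative to all named genes, a value that this scaling cannot change. In bulk tissue fewer adipocytes and less RNA per adipocyte cannot be told apart. The 3 markers with the smallest p were Cidec (-0.31 ± 0.10), Fabp4 (-0.27 ± 0.09) and Pparg (-0.28 ± 0.11). The mean level of the list ran from 7.34 to 7.54 in Rap1-/- and from 7.54 to 7.66 in WT. All 9 tested mesothelium markers were above 0 (median 0.63), led by Krt8 (0.79 ± 0.26), Upk1b (0.64 ± 0.22) and Krt18 (0.63 ± 0.28), and their mean ran from 1.73 to 2.01 in Rap1-/- and from 0.62 to 1.86 in WT. The median was 0.36 with 8 of 9 above 0 without WT replicate 3, and 0.17 and 1.05 within the slides.

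Skeletal muscle markers, of which 14 of 15 were below 0 with a median of -1.27, varied far more among samples, their mean running from -0.73 to 6.04 in Rap1-/- and from 2.18 to 4.67 in WT. The median rested on single arrays, at -0.12 (9 of 15 below 0) without Rap1-/- replicate 4, -0.26 (10 of 15) without replicate 1, -2.56 without replicate 2 and -2.04 without replicate 3 of the knockout, and -0.78 and -0.81 without WT replicates 1 and 4. Myh4, well above background on 6 of the 8 arrays, differed by -5.60 ± 3.77, Ckm, on 7 of the 8, by -2.28 ± 2.19 and Tnni2 by -1.77 ± 1.85. The medians of the fibroblast and preadipocyte markers (0.19, 7 of 10 above 0, with Dpp4 at 0.51, Cd34 at 0.23 and Thy1 at 0.23), the macrophage markers (0.15, 7 of 9 above 0, with C1qa at 0.28, C1qb at 0.25 and Mrc1 at 0.21) and the endothelial markers (-0.04, 2 of 8 above 0 and none beyond 0.11, with Kdr at -0.34, Emcn at -0.22 and Eng at -0.16) were closer to 0. None of these markers passed the adjusted threshold.

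Each member was then set against the mean of each marker list over the 8 arrays, 60 relations in all, of which 6 had an unadjusted p under 0.05 and 0 passed after Benjamini-Hochberg adjustment. Both measures of an array share its scaling, and with 4 arrays a slide holds too few for an r of its own. Akt2 followed the adipocyte markers most closely (Pearson r = 0.93, exact permutation p = 0.0011, adjusted p = 0.064, Spearman rho = 0.90 with exact p = 0.0046 and adjusted p = 0.274). Without the 2 samples farthest from the median of the markers r was 0.70, and after removal of genotype and slide it was 0.93. In the deposited table it was 0.56. Insr gave r = 0.92 (exact permutation p = 0.0034, adjusted p = 0.102, rho = 0.64 with exact p = 0.096 and adjusted p = 0.951), 0.78 without the 2 farthest samples, 0.86 after removal of genotype and slide, and 0.55 in the deposited table. Both were low in Rap1-/- replicate 4 and high in WT replicate 1, where the adipocyte markers had their lowest and highest mean. The part of adipocyte content in the genotype differences of Insr and Akt2 was not tested.

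Irs1 ran the other way, with r = -0.75 (exact permutation p = 0.030, adjusted p = 0.354, rho = -0.69 with exact p = 0.069 and adjusted p = 0.951), -0.39 without the 2 farthest samples and -0.92 after removal of genotype and slide. It was 0.34 under the E1A scaling, so the sign rested on the scaling. Igf1r followed the endothelial markers (r = 0.81, exact permutation p = 0.017, adjusted p = 0.338, rho = 0.69 with exact p = 0.069 and adjusted p = 0.951), at 0.86 without the 2 farthest samples and 0.84 after removal of genotype and slide. Foxo1 followed the mesothelium markers (r = 0.80, exact permutation p = 0.026, adjusted p = 0.354, rho = 0.36 with exact p = 0.389 and adjusted p = 0.951), and the relation rested on the 2 farthest samples, without which r was 0.24 (0.74 after removal of genotype and slide). Akt2 with the skeletal muscle markers likewise rested on 2 samples (r = 0.69, exact permutation p = 0.045, adjusted p = 0.454, rho = 0.45 with exact p = 0.267 and adjusted p = 0.951), at 0.18 without them and 0.68 after removal of genotype and slide.

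**Figure D4:**
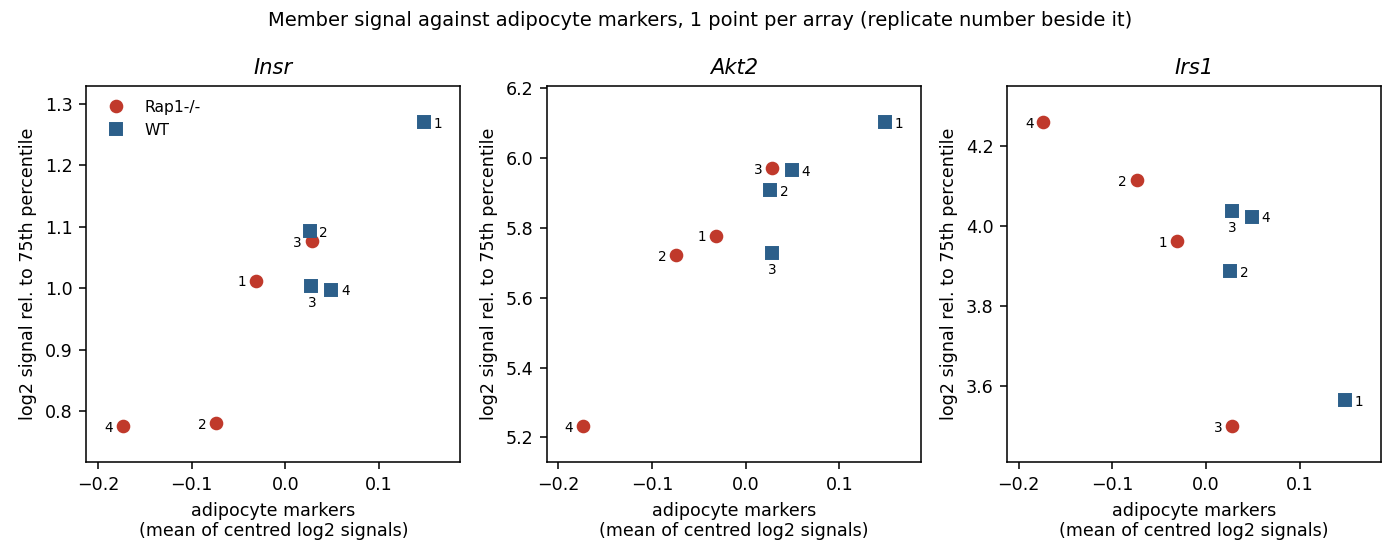
Log2 signal of Insr, Akt2 and Irs1 relative to the array's 75th percentile (vertical axes) against the mean of the centered log2 signals of the 11 adipocyte markers (horizontal axes), 1 point per array with the replicate number beside it (circles Rap1-/-, squares WT). Insr and Akt2 are lowest in Rap1-/- replicate 4 and highest in WT replicate 1, and Irs1 is highest in Rap1-/- replicate 4.

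Among themselves the members gave 45 pairs, of which 4 had an unadjusted exact permutation p under 0.05 and 0 passed after adjustment. Insr and Irs1 were opposed (r = -0.83, exact permutation p = 0.011, adjusted p = 0.202, rho = -0.90 with exact p = 0.0046 and adjusted p = 0.103), at -0.91 without the 2 farthest samples and -0.93 after removal of genotype and slide. Insr and Akt2 went together (r = 0.82, exact permutation p = 0.013, adjusted p = 0.202, rho = 0.81 with exact p = 0.022 and adjusted p = 0.245), at 0.63 without the 2 farthest samples and 0.72 after removal of genotype and slide. Irs1 and Akt2 were opposed (r = -0.78, exact permutation p = 0.013, adjusted p = 0.202, rho = -0.90 with exact p = 0.0046 and adjusted p = 0.103), at -0.65 without the 2 farthest samples and -0.83 after removal of genotype and slide. The opposition of Irs1 to the others depended on the scaling. In the deposited table it was -0.84 with Insr and -0.82 with Akt2, and under the E1A scaling 0.07 and -0.08, whereas Insr and Akt2 gave 0.81 and 0.88. The fourth pair was Insr with Pik3ca (r = 0.73, exact permutation p = 0.037, adjusted p = 0.417, rho = 0.81 with exact p = 0.022 and adjusted p = 0.245). Its r was 0.76 without the 2 farthest samples, 0.81 after removal of genotype and slide, 0.58 in the deposited table and 0.94 under the E1A scaling.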

How the data were processed

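Total RNA of white fat was hybridized by the authors to one-color Agilent mouse arrays, 1 per sample. Groups came from the sample labels. Per the file headers, Feature Extraction 10.7.3.1 made the deposited scanner files, which hold spot signals in linear intensity units, not normalized between arrays, and flags of 0 or 1 for spots above background. Values of the deposited series table are on the log2 scale. The submitters' processing notes name limma without a version or a normalization. The table was matched by normexp background correction (offset 50) with quantile normalization.

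Of 62976 spots per array, 3671 were control spots and were left out. The log2 processed signal had the 75th percentile of its array subtracted, and spots of 1 probe were averaged. Probes were named through RefSeq accessions of a GRCm38.p6 table, which named 26056 probes (46.8%). Genotypes were compared with limma 3.58.1 (R 4.3.3) over the 33983 probes that passed the scanner's call above background on 4 or more arrays, with Benjamini-Hochberg adjustment over all of them and a threshold of 0.05. The fit was tested on simulated data. Exact permutation tests were two-sided, with all assignments of 4 and 4 arrays or, for correlations, all 40320 orders (scipy 1.17.1). Figures were drawn with matplotlib 3.10.9. A gene of a list was represented by its brightest tested probe. Named were all member probes, Terf2ip, up to 3 genes per list by p, and the 2 genes most like each member. Members and lists were chosen with earlier results of these data known. Alternatives covered background correction (on the median signal, as the files used here hold no mean signal), normalization, E1A and median scaling, the deposited table, filters, probe choice, variance model, slide, replicate block, marker covariates and leaving out each array. Correlations in the deposited table and under E1A scaling were added after the data were seen. The number of arrays limits the precision.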

Additional observations from a re-analysis of the deposited data

Results flagged for a closer look

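In 1 of the 32 sets of 4 values (16 probes in 2 genotypes) the outermost sample stood apart from the others, where chance gives about 1 in 20. On Akt2 probe A_55_P2066523, WT replicate 3 read 0.92 and the other WT samples 1.35, 1.37 and 1.39, so that the gap to its nearest neighbor was 0.914 of the whole range (above Dixon's 95% critical value for 4 samples). The brighter Akt2 probes also had their lowest WT value in replicate 3, at 5.73 and 5.60, and that array had the lowest mean of the mesothelium markers. Its part in the result was not tested.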

How the results depend on the processing

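No member probe passed the adjusted threshold under any of the 23 alternatives run (smallest limma adjusted p 0.6213). The median difference of the 10 genes moved from -0.05 to 0.18 under E1A scaling, to -0.15 within slide 1 and to -0.17 with the mesothelium markers as a covariate, and lay between -0.11 and 0.03 as each array was left out. Some alternatives cannot change a difference and bear only on the p-values, so the unchanged direction of the 16 probes under them is no test. These were no filter, the filter on all 8 arrays, the trended and robust variance, and the slide as a block, since each slide holds 2 arrays of each genotype. The signs that turned were, by setting, as follows. With normexp, Pik3ca gave 0.0083 and Akt1 0.029. With quantile normalization, Insr A_55_P2172566 gave 0.014 and Akt1 0.044. With median scaling, Insr A_55_P2172566 gave 0.037, Igf1r 0.018, Irs1 A_52_P171212 0.0098, Irs2 0.0046, Pik3ca 0.028 and Akt1 0.060. In the deposited table, Insr A_55_P2172566 gave 0.030, Irs2 0.0052, Pik3ca 0.040 and Akt1 0.051. Under E1A scaling, which adds the same shift to every gene, the Insr probes gave 0.051, 0.094 and 0.21, Igf1r 0.19, Irs1 A_52_P171212 0.18, Irs2 0.17, Irs3 0.027, Pik3r1 0.14, Pik3ca 0.20, Akt1 0.23, Akt2 A_55_P2025228 0.0030 and Akt2 A_55_P2066523 0.15. Within slide 1, Igf1r gave 0.0072, Irs1 A_52_P171212 0.22, Irs2 0.0064 and Foxo1 A_51_P138044 -0.0023. Within slide 2, Irs1 A_52_P175242 gave -0.15, Irs3 0.14, Pik3r1 0.27, Pik3ca 0.13, Akt1 0.11 and Akt2 A_55_P2066523 0.055. With the muscle markers as a covariate, Akt1 gave 0.012. With the mesothelium markers, Irs1 A_52_P171212 gave 0.26 and the Foxo1 probes -0.072 and -0.074. As each array was left out, 8 probes changed sign, with ranges of -0.090 to 0.061 (Insr A_55_P2172566), -0.14 to 0.042 (Igf1r), -0.024 to 0.23 (Irs1 A_52_P175242), -0.19 to 0.12 (Irs1 A_52_P171212), -0.17 to 0.051 (Irs2), -0.21 to 0.12 (Pik3r1), -0.10 to 0.038 (Pik3ca) and -0.069 to 0.057 (Akt1). Beyond the scalings, the cause was not tested. Same-numbered samples of the genotypes did not deviate together (r = -0.21, -0.12, -0.10 and -0.15). These values gave no sign of a pairing by number and cannot exclude one. With the replicate block, 0 member probes and 2 probes in all passed, as without it. That block cannot change a difference, because each number holds 1 array of each genotype.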

Other observations

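For each member, the named genes whose signal followed it most closely over the 8 arrays are given as a description, picked as the highest of 14925 genes. Akt2 was followed most closely by Pdpk1 (Pearson r = 0.97), which encodes the kinase that phosphorylates AKT, and then by Gm5460 (0.95). Insr was followed by Speer4d (0.98) and Hyls1 (0.98), Igf1r by C5ar2 (0.97) and Ptprg (0.97), Irs1 by Pfdn4 (0.95) and Sipa1l1 (0.94), Irs2 by Got1l1 (0.99) and Rasl12 (0.96), and Irs3 by Miip (0.96) and Fam170b (0.96). Pik3r1 was followed by Ankrd13b (0.95) and C130050O18Rik (0.94), Pik3ca by Grhpr (0.99) and Stx8 (0.96), Akt1 by Thap1 (0.97) and Dync2h1 (0.95), and Foxo1 by Traf3ip2 (0.96) and Desi2 (0.96).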
